A study of Mus musculus with 11 samples.

Results

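The genes described here are 10 genes of the epithelial-mesenchymal transition (EMT). Among them are *Dab2* and *Fam3c*, known translational targets of the poly(C)-binding protein PCBP1. All 10 were chosen by name among the 26283 genes in the deposited table. Each passed the filter on low counts, which kept 19232 genes. RNA was sequenced from 11 mammary tumors of female C57BL/6 mice that carried MMTV-PyMT, which expresses a polyomavirus oncogene in mammary epithelium, together with MMTV-Cre. The 6 PyMT *Pcbp1*–/– tumors, labelled PCBP1 KO, came from *Pcbp1*(fl/fl) animals and the 5 PyMT *Pcbp1*+/+ tumors came from *Pcbp1*(wt/wt) animals that carried the same oncogene and the same Cre, all at 18 weeks of age. They are called knockout and wild-type tumors from here on. Cre was driven by MMTV, and the paper describes the knockout as selective for mammary epithelial cells. Whether the fibroblasts, vessels and leukocytes of a PyMT *Pcbp1*–/– tumor keep *Pcbp1* was not tested here. The tumors held between 11239931 and 14092192 estimated counts in the PyMT *Pcbp1*–/– group and between 10543189 and 11411776 in the PyMT *Pcbp1*+/+ group, and the labels put all of them in a single batch. Nothing in the labels ties each tumor to an animal of its own, so that p-values measure the spread between these tumors.

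EMT is the program by which epithelial cells loosen their junctions and take on the shape and motility of mesenchymal cells. PCBP1, also known as hnRNP E1, binds a structured element in the 3′ untranslated region of certain EMT mRNAs and holds back their translation until TGF-beta signaling releases it, and it also takes part in alternative splicing. In the mammary gland, the transcription factors of EMT repress E-cadherin and are themselves found in basal and stromal cells. The comparison asks whether the RNA of the 10 genes differed between knockout and wild-type tumors. Protein and translation were not analysed here.

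*Pcbp1* itself was measured first as a check of the labels. It lies on the minus strand of GRCm38 chromosome 6 from 86524492 to 86526321. Deposited CPM, which are estimated counts scaled to a total of 1000000 in each tumor, were 268, 271, 225, 220 and 259 in wild-type replicates 1 to 5 and 19.5, 19.2, 28.1, 22.3, 15.4 and 33.6 in knockout replicates 1 to 6. Every knockout tumor was below every wild-type tumor. The log2 fold change was -3.43 (SE 0.19, adjusted p = 4.72e-06 from edgeR's quasi-likelihood test).

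None of the 10 genes passed an adjusted p of 0.05 in edgeR, where 2.27% of the genes tested did (1.66% lower and 0.608% higher in knockout tumors). A log2 fold change below 0 was found for 5 of the 10 and above 0 for the other 5, and their median was -0.01, beside -0.00 over all genes tested. At an unadjusted p under 0.05, edgeR gave 1 of the 10 (*Snai2*), against 18.7% of all genes tested. DESeq2 called 0 of the 10 after adjustment and 1 before it, where its shares over all genes were 6.32% and 19.4%. In limma-voom with sample quality weights the counts were 0 after adjustment and 4 before it, beside 11.2% and 30.3% of all genes. For each of the 10 genes the ranges of the groups overlapped in deposited CPM, whereas 3.29% of the genes tested had groups that did not overlap.

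**Figure D1:**
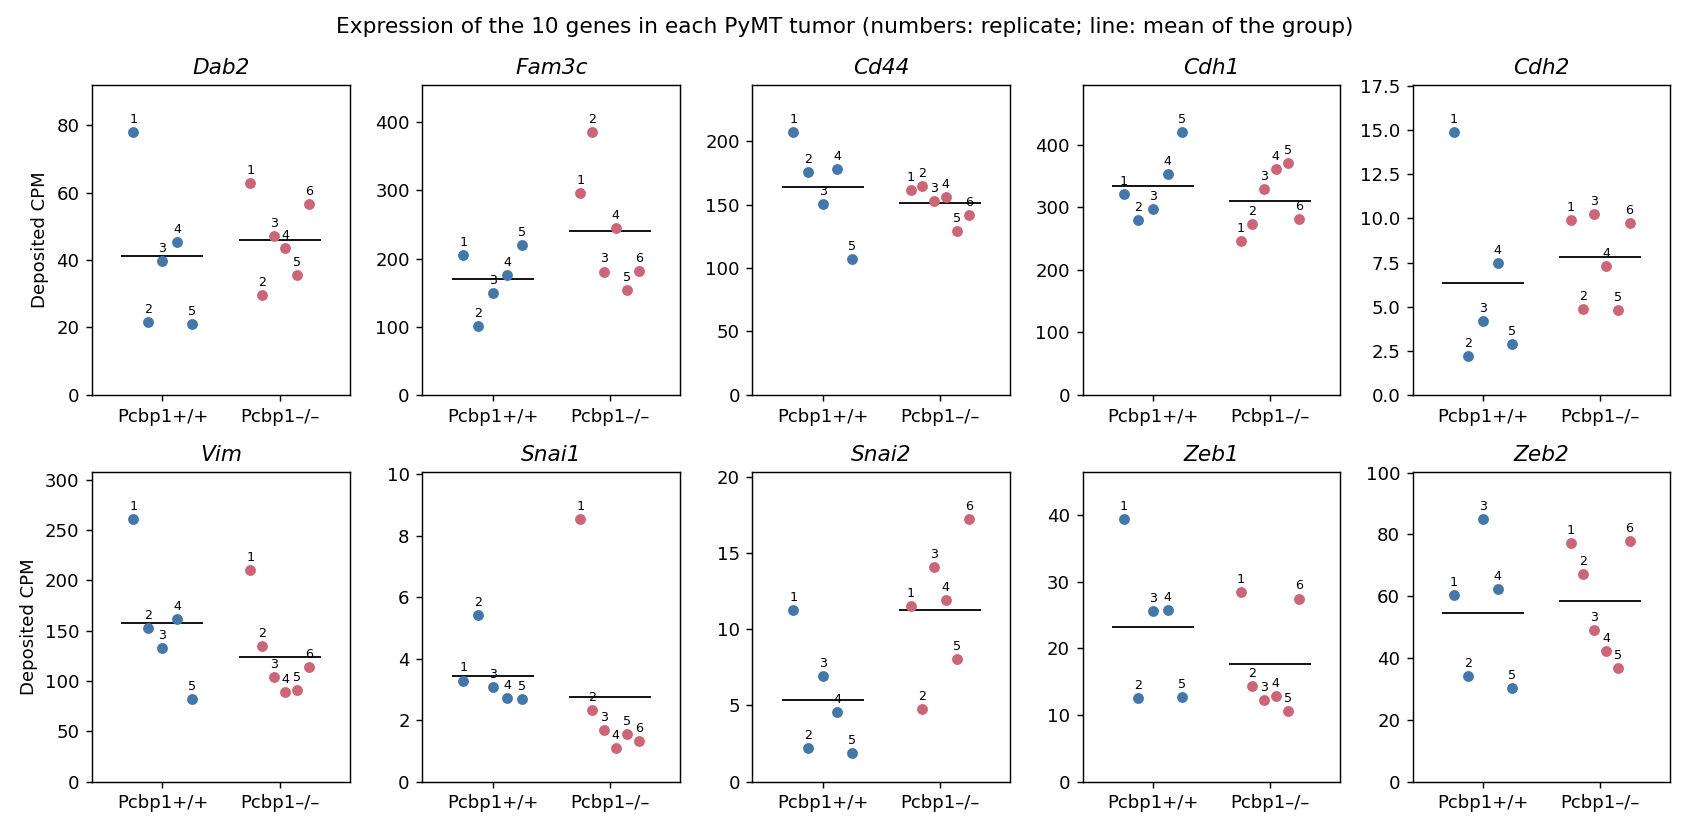
Deposited CPM of each of the 10 genes on linear axes from 0, with 1 point for each tumor (*Pcbp1*+/+, wild-type; *Pcbp1*–/–, knockout), the replicate number above it and a line at the mean of the group. The groups overlap for every gene, and for *Snai1* a single knockout tumor, at 8.54 CPM, lies above the others.

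*Dab2* and *Fam3c* are the translational targets. *Dab2* encodes an endocytic adaptor that links cargo receptors to clathrin, and is annotated on the plus strand of GRCm38 chromosome 15 from 6299788 to 6440712. Its level was 77.9, 21.6, 39.8, 45.5 and 21.0 CPM in wild-type replicates 1 to 5, and ran from 29.6 to 63.0 CPM with a median of 45.4 over the 6 knockout tumors. The lowest and the highest tumors were both wild-type, and all knockout tumors fell between them. Means were 45.9 ± 12.5 CPM (SD, n = 6) in knockout and 41.2 ± 23.2 CPM (SD, n = 5) in wild-type tumors. In edgeR the log2 fold change was 0.18 (SE 0.30, adjusted p = 0.787), with a 95% interval from -0.48 to 0.84. The estimate was 0.50 without wild-type replicate 1, the highest tumor, 0.02 without wild-type replicate 2 and 0.03 without wild-type replicate 5, with an adjusted p of at least 0.376 in edgeR whichever tumor was left out.

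*Fam3c* encodes ILEI, a secreted cytokine-like protein that promotes EMT, and lies on the minus strand of chromosome 6 from 22306520 to 22356243. Wild-type replicates 1 to 5 had 205, 101, 149, 176 and 220 CPM, and knockout replicates 1 to 6 had 296, 386, 181, 246, 154 and 182 CPM. Replicates 1, 2 and 4 of the knockout group stood above every wild-type tumor, and the other 3 lay among them. The means were 241 ± 87.8 CPM (SD, n = 6) and 170 ± 47.2 CPM (SD, n = 5). The difference, a log2 fold change of 0.49 with SE 0.25 (unadjusted p = 0.0715, adjusted p = 0.312 in edgeR), had a 95% interval from -0.05 to 1.03, which held both 0 and 1. Without knockout replicate 2, the highest tumor, it was 0.32, and without wild-type replicate 5 it was 0.63 (unadjusted p = 0.0317, adjusted p = 0.204 in edgeR). These were the lowest and the highest estimates with each tumor left out.

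The element that PCBP1 binds in these mRNAs is known as BAT, and the study used an RNA probe of it together with a mutant probe as designed oligonucleotides. They are shown because they are the sequences with which binding of PCBP1 was probed. Bases 9 to 32 of each 40-base probe, called the core here, are printed 5′ to 3′, with the first and last 3 bases in capitals, which mark the runs of C and their mutant forms.
BAT RNA: CCCaaugccuggaagggcauuCCC
Gmut BAT RNA: GCCaaugccuggaagggcauuGCC
Counted from the first base printed, the probes differed by C1G and C22G. Between the capitals, the first 6 bases (aaugcc) pair with the last 6 (ggcauu), so that a stem can form with the 3-base runs on either side. An exact match to the 24-base core of BAT RNA was found in the annotated 3′ untranslated region of 0 of the 10 mouse genes, and in 0 of 19781 genes searched, in GENCODE transcripts for GRCm39, another build than that of the counts. A search for an exact copy of the probe cannot show whether a gene carries the element in another form.

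Runs of at least 3 C were counted in the same 3′ untranslated regions of the canonical transcripts, which were at least 100 bases long. The median over all 19781 genes was 10.4 runs per kb, with quartiles of 6.53 and 16.2. *Dab2* had 18 runs in 1932 bases, or 9.32 per kb, and 56.4% of all genes had at least as many per kb. *Fam3c* had 12 runs in 1932 bases, or 6.21 per kb, a density reached by 77.1% of all genes. Both translational targets thus lay below the median. The densest of the 10 was *Snai1*, with 22 runs in 734 bases (30.0 per kb, reached by 3.67% of all genes), followed by *Cdh1* at 12.9 and *Cd44* at 12.4 per kb. *Zeb1* had 9.98 and *Zeb2* 7.33 runs per kb, and *Vim*, *Cdh2* and *Snai2* had 3.17, 3.14 and 1.83. These counts describe letters and not binding.

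Of all genes tested in edgeR, 2.27% were called and 18.7% had an unadjusted p under 0.05, shares to set beside the counts of each list. Around the translational targets, the list of DAB2 endocytic partners held 12 tested genes. Of these, 0 were called by edgeR in either direction and 1 had an unadjusted p under 0.05. The median log2 fold change of this list was -0.05 (-0.11 to -0.01 with each tumor left out). The most abundant gene of this list in CPM not divided by length was *Lrp6*, a Wnt co-receptor, with 271 ± 41.5 CPM (SD, n = 6) in knockout and 292 ± 81.6 CPM (SD, n = 5) in wild-type tumors. In the list of the FAM3 family and ILEI receptor signaling, 0 of 5 tested genes were called and 1 had an unadjusted p under 0.05, with a median of -0.14. This median was 0.018 with no filter on low counts, -0.28 in limma-voom and -0.25 to -0.06 with each tumor left out. *Stat3*, a transcription factor activated by cytokine receptors, was its most abundant gene, at 325 ± 51.9 CPM (SD, n = 6) against 290 ± 58.6 (SD, n = 5). The list for TGF-beta control of PCBP1-bound translation, from the ligands through the SMADs to *Akt2* and *Pak1*, had 0 of 11 genes called, 1 gene with an unadjusted p under 0.05 and a median of 0.09, which was -0.02 in limma-voom, -0.001 without knockout replicate 3 and -0.01 without wild-type replicate 2. Its most abundant gene was *Eef1a1*, a translation elongation factor, at 1579 ± 104 CPM (SD, n = 6) and 1442 ± 118 CPM (SD, n = 5).

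*Cd44* encodes the hyaluronan receptor, whose variant exons are spliced differently in epithelial and mesenchymal cells, with PCBP1 among the proteins that act on them. It lies on the minus strand of chromosome 2 from 102811141 to 102901665. Wild-type replicates 1 to 5 were at 207, 176, 151, 178 and 107 CPM, and knockout tumors ran from 129 to 165 CPM with a median of 154. The knockout tumors lay close together, while replicates 1, 2 and 4 of the other genotype were above all of them and replicate 5 was below all of them. Means were 151 ± 13.3 CPM (SD, n = 6) and 164 ± 37.4 CPM (SD, n = 5), with a log2 fold change of -0.11 (SE 0.12, adjusted p = 0.667 from edgeR) and a 95% interval from -0.37 to 0.15. It was -0.04 without wild-type replicate 1 and -0.21 without wild-type replicate 5. Gene counts hold no information on which exons were used. In the list of CD44 splicing factors, ligands and linkers, 0 of 15 tested genes were called (2.27% of all genes tested). An unadjusted p under 0.05 was found for 2 (18.7% of all genes tested), and the median of the genes in this list was 0.00. *Spp1*, which encodes the CD44 ligand osteopontin, was the most abundant of them, with 223 ± 102 CPM (SD, n = 6) in knockout and 660 ± 487 (SD, n = 5) in wild-type tumors. On the log2 scale the difference was -1.53 (SE 0.44), with an adjusted p of 0.0941 from edgeR and 0.0113 from DESeq2, so that the call depended on the tool.

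*Cdh1* encodes E-cadherin, the adhesion protein of epithelial junctions, and lies on the plus strand of chromosome 8 from 106603351 to 106670246. It was at 321, 280, 297, 354 and 420 CPM in wild-type replicates 1 to 5 and between 247 and 371 CPM, with a median of 305, in knockout tumors. Replicates 1 and 2 of the knockout group were below every wild-type tumor, and wild-type replicate 5 was above all others. With means of 310 ± 50.8 CPM (SD, n = 6) and 334 ± 55.2 CPM (SD, n = 5), the log2 fold change was -0.11 (SE 0.15, adjusted p = 0.728 from edgeR), and it was 0.014 without wild-type replicate 5. Its 95% interval from -0.43 to 0.21 corresponded to 0.743-fold to 1.16-fold.

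*Cdh2* encodes N-cadherin, the adhesion protein of mesenchymal and neural cells, and lies on the minus strand of chromosome 18 from 16588877 to 16809246. Values of 14.9, 2.18, 4.21, 7.47 and 2.86 CPM were found in wild-type replicates 1 to 5, and values from 4.83 to 10.2 CPM with a median of 8.53 in knockout tumors. Replicate 1 was the highest and replicates 2, 3 and 5 the lowest of all tumors within the wild-type group, which enclosed the other. The means were 7.82 ± 2.52 CPM (SD, n = 6) and 6.32 ± 5.21 CPM (SD, n = 5), and the log2 fold change was 0.34 (SE 0.42, adjusted p = 0.703 from edgeR), with a 95% interval from -0.57 to 1.24. Leaving out a wild-type tumor moved the estimate most, to 0.89 without replicate 1, 0.12 without replicate 2 and 0.17 without replicate 5, with no adjusted p under 0.05.

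*Vim* encodes vimentin, the intermediate filament of mesenchymal cells and leukocytes, and lies on the plus strand of chromosome 2 from 13573927 to 13582826. Wild-type replicates 1 to 5 had 261, 153, 133, 161 and 82.3 CPM, while knockout tumors ran from 89.0 to 210 CPM with a median of 109. Replicate 1 was the highest tumor of either genotype, and the lowest of all was wild-type replicate 5. The means of 124 ± 45.4 CPM (SD, n = 6) and 158 ± 65.2 CPM (SD, n = 5) gave a log2 fold change of -0.33 (SE 0.26, adjusted p = 0.518 from edgeR), with a 95% interval from -0.90 to 0.23. The estimate was -0.12 without wild-type replicate 1 and -0.54 (unadjusted p = 0.0318, adjusted p = 0.222 from edgeR) without knockout replicate 1. In bulk tumors, fewer cells of a type and less RNA per cell cannot be told apart, for vimentin as for the other genes.

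Lists of epithelial and mesenchymal genes were read beside the cadherins and vimentin. Of 32 epithelial adhesion and identity genes, 0 were called by edgeR (2.27% of all genes tested) and 2 had an unadjusted p under 0.05 (18.7% of all genes tested). Of these 32, 15 had a log2 fold change below 0 and 17 above it, and the median was 0.02 (-0.04 to 0.08 with each tumor left out). *Ctnnb1*, which encodes the beta-catenin that binds the tail of E-cadherin, was the most abundant of these genes in CPM not divided by length, at 578 ± 115 CPM (SD, n = 6) in knockout and 515 ± 267 CPM (SD, n = 5) in wild-type tumors. Among 33 tested mesenchymal genes, 0 were called, 3 had an unadjusted p under 0.05, 11 were below 0 and 22 above it, and the median was 0.10. This median was -0.002 in limma-voom, 0.005 without knockout replicate 1, -0.02 without wild-type replicate 5 and 0.22 without wild-type replicate 3. *Sparc*, a secreted matrix protein gene, was the most abundant of them at 407 ± 98.9 CPM (SD, n = 6) and 402 ± 204 CPM (SD, n = 5). Beside these medians, that of all genes tested was -0.00.

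Among the EMT transcription factors, *Snai1* and *Snai2* encode the zinc finger proteins SNAIL and SLUG, and *Zeb1* and *Zeb2* encode larger zinc finger and homeodomain proteins. These repressors bind E-box sequences, including those of the *Cdh1* promoter. *Snai1* lies on the plus strand of chromosome 2 from 167538195 to 167542814. In wild-type replicates 1 to 5 it was at 3.29, 5.41, 3.07, 2.73 and 2.68 CPM, and in knockout replicates 1 to 6 at 8.54, 2.33, 1.69, 1.10, 1.56 and 1.31 CPM. The 5 knockout tumors other than replicate 1 were below every wild-type tumor, and replicate 1 was above all of them. These levels rested on 15 to 100 estimated counts in a tumor. The log2 fold change over all 11 tumors was -0.33 (SE 0.49, adjusted p = 0.754 from edgeR), with a 95% interval from -1.41 to 0.74. Without knockout replicate 1 it was -1.10 (unadjusted p = 0.00142, adjusted p = 0.0623 from edgeR), and without wild-type replicate 2 it was -0.12. Over all alternatives the adjusted p ran from 0.0623 to 0.924.

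*Snai2* lies on the plus strand of chromosome 16 from 14705852 to 14709385 and is the member with the lowest p. Its values were 11.2, 2.18, 6.92, 4.56 and 1.88 CPM in wild-type replicates 1 to 5 and 11.5, 4.80, 14.06, 11.9, 8.02 and 17.2 CPM in knockout replicates 1 to 6. In 4 of the 6 knockout tumors the level was above every wild-type tumor, and replicates 2, 4 and 5 of the wild-type group were below every knockout tumor. Means of 11.3 ± 4.39 CPM (SD, n = 6) and 5.35 ± 3.87 CPM (SD, n = 5) gave a log2 fold change of 1.09 (SE 0.44, unadjusted p = 0.0278, adjusted p = 0.207 from edgeR), a p that ranked 2586 among the genes tested. The 95% interval of this difference ran from 0.14 to 2.03 before any correction for the number of genes tested. Its sign was kept in each of 17 alternatives, with log2 fold changes from 0.88 to 1.50 and adjusted p from 0.0654 to 0.341.

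*Zeb1* lies on the plus strand of chromosome 18 from 5591860 to 5775467, and 2 minor genes are annotated on the opposite strand inside it, the more abundant of them at 9.78% of its mean CPM. Whether counting used strand is not given in the sources used here, so that reads of *Zeb1* or *Zeb2* and of their antisense genes cannot be told apart. Levels of 39.4, 12.6, 25.6, 25.8 and 12.7 CPM were measured in wild-type replicates 1 to 5, and levels from 10.6 to 28.4 CPM with a median of 13.6 in knockout tumors. Replicates 1 and 6 of the knockout group were high and the other 4 lay near the lowest wild-type tumors. With means of 17.6 ± 8.10 CPM (SD, n = 6) and 23.2 ± 11.2 CPM (SD, n = 5), the log2 fold change was -0.38 (SE 0.34, adjusted p = 0.579 from edgeR) and its 95% interval ran from -1.12 to 0.35. It was -0.15 without wild-type replicate 1 and -0.73 in limma-voom with sample quality weights (unadjusted p = 0.02, adjusted p = 0.0984).

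*Zeb2*, on the minus strand of chromosome 2 from 44983632 to 45117395, overlaps the antisense gene *Zeb2os*, which was at 1.91% of its mean CPM. The deposited values were 60.5, 34.3, 85.0, 62.3 and 30.4 CPM in wild-type replicates 1 to 5 and 36.8 to 77.8 CPM with a median of 58.0 in knockout tumors. The highest and the lowest tumor were both wild-type. Means were 58.3 ± 18.02 CPM (SD, n = 6) and 54.5 ± 22.4 CPM (SD, n = 5), with a log2 fold change of 0.09 (SE 0.28, adjusted p = 0.897 from edgeR) and a 95% interval from -0.53 to 0.70. Its sign turned in limma-voom with sample quality weights, where it was -0.25, and in 4 of the 11 fits that left out a tumor (knockout replicates 1 and 6, wild-type replicates 2 and 5), where it was -0.002, -0.02, -0.04 and -0.05.

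The other EMT transcription factors were a list of 15 genes, of which 11 were tested. Of these, 0 were called (2.27% of all genes tested) and 0 had an unadjusted p under 0.05 (18.7% of all genes tested). The log2 fold change was below 0 for 7 and above it for 4, with a median of -0.23 (-0.30 to -0.10 with each tumor left out). *Twist1* was at 2.84 ± 1.52 CPM (SD, n = 6) in knockout and 4.56 ± 2.79 CPM (SD, n = 5) in wild-type tumors and was named after its values were seen. The most abundant was *Sox4*, at 465 ± 99.3 CPM (SD, n = 6) and 393 ± 55.7 CPM (SD, n = 5).

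**Figure D2:**
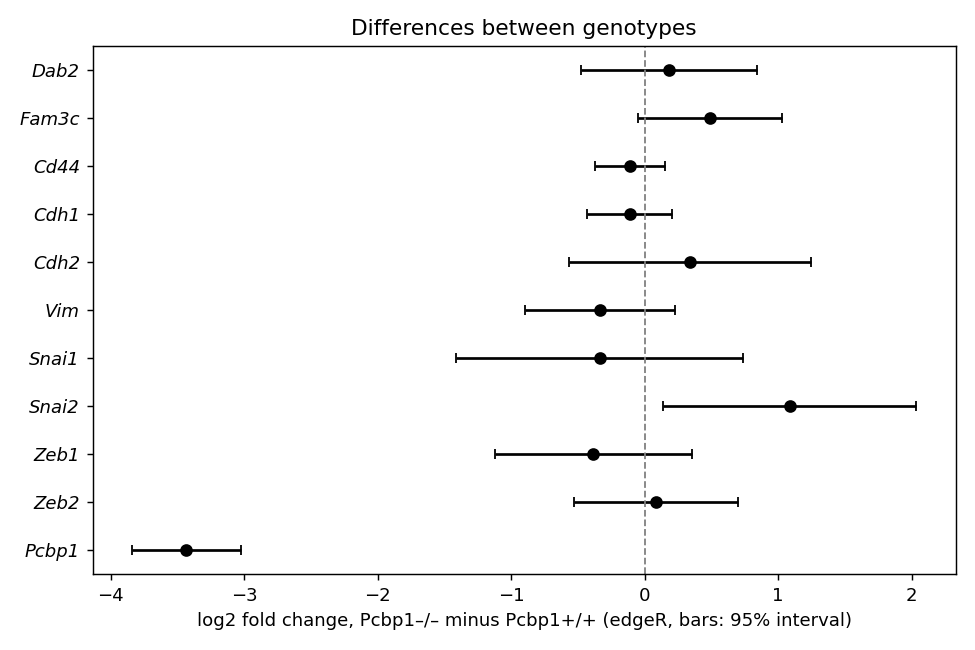
Log2 fold change of each of the 10 genes and of *Pcbp1* (knockout minus wild-type), as points with bars for the 95% interval from edgeR, unadjusted for the number of genes, and a dashed line at 0. The bar of *Snai2*, from 0.14 to 2.03, is the only one of the 10 that does not cross 0, and that of *Pcbp1* runs from -3.84 to -3.03.

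Levels were compared between genes as CPM per kb of annotated exon, with the joined length of all exons of a gene taken from GENCODE for GRCm39 by Ensembl identifier. In wild-type tumors *Cdh1* was the most abundant at 72.1 ± 11.9 CPM per kb (SD, n = 5). *Vim* at 33.3 ± 13.7, *Fam3c* at 27.1 ± 7.49 and *Cd44* at 24.2 ± 5.52 CPM per kb followed, and neighbours among these differed by less than their SD. A step larger than both SDs led down to *Dab2* at 3.75 ± 2.12 CPM per kb. *Zeb2* at 2.40, *Snai2* at 2.31, *Snai1* at 2.12 and *Zeb1* at 1.70 CPM per kb came next, each within the SD of its neighbour, and *Cdh2* was the least abundant at 0.729 ± 0.6005 CPM per kb. In knockout tumors the same 4 genes led, with *Cdh1* at 67.0 ± 11.0, *Fam3c* at 38.2 ± 13.9, *Vim* at 26.1 ± 9.56 and *Cd44* at 22.3 ± 1.96 CPM per kb (SD, n = 6). *Snai2* at 4.86 ± 1.90 and *Dab2* at 4.19 ± 1.14 CPM per kb differed by less than their SD there, and *Cdh2* was again last at 0.901 ± 0.291 CPM per kb.

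Promoters were searched for the E-box that SNAIL and ZEB proteins bind, since members of the list encode these proteins. RefSeq promoters of GRCm38.p6 were matched by symbol for 6 of the genes (*Dab2*, *Fam3c*, *Cd44*, *Vim*, *Snai1* and *Zeb2*), with 10 entries, and were missing for *Cdh1* and *Snai2* among others. The motif CAGGTG, read on both strands (CACCTG), was searched in the 250 bases before each start. It was present in 1 of these 10 entries, that of *Snai1*, and in 17.2% of the 32851 promoters in the table. The window around it is shown because *Snai1* is both a gene of the list and the source of a protein that binds this motif. It lies at chr2:167538057-167538086 on the plus strand, upstream of the first exon, with the motif in capitals starting at position -126 from the start of the gene.
*Snai1* promoter: gcagcccaggcgCACCTGctccggtctcag
No conclusion about binding was drawn from the presence or absence of these letters.

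Several of the genes varied together from tumor to tumor. Over the 11 tumors, 3 of 45 pairs had an adjusted p under 0.05 for Pearson's r of log2(TMM CPM + 1), by two-sided permutation tests with 100000 resamples and Benjamini-Hochberg adjustment over the 45 pairs. *Dab2* and *Cdh2* had r = 0.94 (permutation p = 1e-05, the smallest that these permutations can give, adjusted p = 0.00045) and rho = 0.91 (permutation p = 0.00024, adjusted p = 0.0108), with r = 0.88 without the 2 tumors farthest from the median of *Dab2* and r = 0.91 within the 6 knockout tumors. *Dab2* and *Snai2* had r = 0.85 (permutation p = 0.0009, adjusted p = 0.0203) and rho = 0.80 (permutation p = 0.00473, adjusted p = 0.0532), falling to r = 0.62 without the 2 farthest tumors. *Cdh2* and *Snai2* had r = 0.84 (permutation p = 0.00139, adjusted p = 0.0209) and rho = 0.82 (permutation p = 0.00341, adjusted p = 0.0512), falling to r = 0.63. Within the 6 knockout tumors r was 0.86 for *Dab2* with *Snai2* and 0.88 for *Cdh2* with *Snai2*, and with values centred within genotype it was 0.87 and 0.75 without the 2 farthest tumors.

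Over the 11 tumors *Cdh1* had a negative r with each of the other 9 genes, although none of these pairs passed the adjustment over values not centred by genotype. Without the 2 tumors farthest from the median of *Cdh1* the sign turned for *Snai2* (from -0.26 to 0.32) and *Cdh2* (from -0.28 to 0.16), and within the 6 knockout tumors that for *Snai2* was 0.12. For *Cd44* and *Cdh1* r went from -0.65 to -0.015 without the 2 tumors farthest from the median of *Cd44*. The lowest was that of *Cdh1* and *Vim*, with r = -0.70 (permutation p = 0.0148, adjusted p = 0.0883) and rho = -0.67 (permutation p = 0.0275, adjusted p = 0.174), and r = -0.52 without the 2 tumors farthest from the median of *Cdh1*. *Cd44* and *Vim* had r = 0.77 (permutation p = 0.00494, adjusted p = 0.0556) and rho = 0.84 (permutation p = 0.00246, adjusted p = 0.0512). *Zeb1* and *Zeb2* had r = 0.74 (permutation p = 0.0134, adjusted p = 0.0883) and rho = 0.68 (permutation p = 0.025, adjusted p = 0.174). *Fam3c* had r between -0.16 and 0.30 with the other genes over the 11 tumors, and without the 2 tumors farthest from its median r was 0.46 with *Snai1*. Within the 6 knockout tumors its r was 0.83 with *Cd44*, 0.57 with *Vim*, -0.57 with *Snai2* and -0.65 with *Cdh1*, values for which significance was not tested. With values centred within each genotype, permutations still ran over all 11 tumors, with no allowance for the group means removed. Such p-values may be too small. By them, 10 of the 45 pairs had an adjusted p under 0.05, the 3 above among them. Of the pairs of *Cdh1*, that with *Vim* then had r = -0.86 (permutation p = 0.00058, adjusted p = 0.00653) and rho = -0.88 (permutation p = 0.00054, adjusted p = 0.0121), with r = -0.76 without the 2 farthest tumors. *Cd44* and *Cdh1* had r = -0.74 (permutation p = 0.00557, adjusted p = 0.0358) and rho = -0.78 (permutation p = 0.00637, adjusted p = 0.0412) after centring, with r = -0.27 without the 2 tumors farthest from the median of *Cd44* and r = -0.55 within the 6 knockout tumors. *Cd44* and *Vim* (r = 0.76, adjusted p = 0.0358 by permutation) and *Zeb1* and *Zeb2* (r = 0.83, adjusted p = 0.0197 by permutation) also passed after centring. The other pairs past the threshold were *Dab2* with *Zeb1* (r = 0.87, adjusted p = 0.00653 by permutation), *Cdh2* with *Zeb1* (r = 0.77, adjusted p = 0.0358 by permutation) and *Vim* with *Zeb1* (r = 0.73, adjusted p = 0.0383 by permutation). For the last of these r was 0.46 without the 2 tumors farthest from the median of *Vim*, and rho did not pass the adjustment for *Cdh2* with *Zeb1* (adjusted p = 0.081 by permutation) or for *Vim* with *Zeb1* (adjusted p = 0.118 by permutation). Nor did rho pass after centring for *Cdh2* with *Snai2* (rho = 0.745, adjusted p = 0.0624 by permutation). All tumors share 1 batch in the labels, so that each r was taken within that batch.

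**Figure D3:**
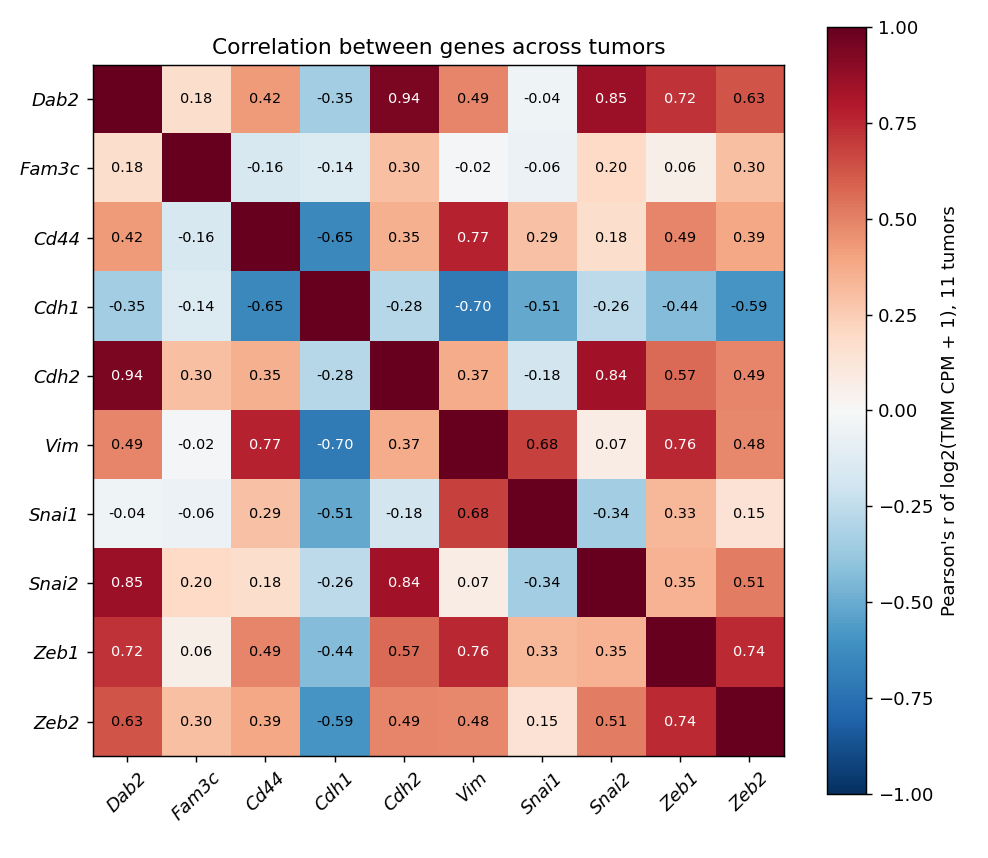
Pearson's r of log2(TMM CPM + 1) over 11 tumors for each pair of the 10 genes, printed in each square and colored from -1 (blue) to 1 (red). The row of *Cdh1* holds negative values against all 9 other genes, and *Dab2*, *Cdh2* and *Snai2* form a group with r of 0.84 to 0.94.

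For each of the 10 genes, the 3 protein-coding genes with the highest Pearson r were taken from 13667 genes, with log2(TMM CPM + 1) centred within genotype over the 11 tumors. These are descriptions without a test, since the genes were picked for their r. The genes most like *Dab2* were *Kcnk2* (r = 0.98, rho = 0.96), *Vcan* (r = 0.97, rho = 0.94) and *Pdgfa* (r = 0.97, rho = 0.88). *Fam3c* was closest to *Lman2* (r = 0.95, rho = 0.93), *Mlec* (r = 0.94, rho = 0.96) and *Egln2* (r = 0.94, rho = 0.97), of which the first encodes a cargo receptor and the next a lectin of the secretory pathway. For *Cd44* they were *Ric1* (r = 0.95, rho = 0.88), *Shisa5* (r = 0.95, rho = 0.76) and *Fam160a2* (r = 0.92, rho = 0.91). *Shisa5* was the only one of the 30 genes named by likeness that passed an adjusted p of 0.05, at a log2 fold change of -0.58 (SE 0.13, adjusted p = 0.0367 in edgeR).

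The nearest to *Cdh1* were *Gabpa* (r = 0.98, rho = 0.98), *Tmem186* (r = 0.97, rho = 0.95) and *Bfar* (r = 0.97, rho = 0.97). *Cdh2* was followed most closely by *Adgrb2* (r = 0.98, rho = 0.88), *Scnn1g* (r = 0.97, rho = 0.99) and *Gas1* (r = 0.97, rho = 0.92). The genes nearest to *Vim* were *Camk2n1* (r = 0.95, rho = 0.89), *Rsu1* (r = 0.94, rho = 0.88) and *Atp6ap1* (r = 0.93, rho = 0.92). None of these genes was called between the genotypes by edgeR.

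Among the transcription factors, *Zeb2* was closest to *Hcls1* (r = 0.99, rho = 0.99), *Cybb* (r = 0.98, rho = 0.93) and *Csf1r* (r = 0.98, rho = 0.95), which are genes of hematopoietic cells. *Zeb1* was closest to *Tmem30a* (r = 0.97, rho = 0.98), *S1pr3* (r = 0.97, rho = 0.93) and *Fam49a* (r = 0.96, rho = 0.97). The nearest genes to *Snai2* were *Slc2a4* (r = 0.97, rho = 0.95), *Ngfr* (r = 0.96, rho = 0.93) and *Rev3l* (r = 0.95, rho = 0.95). *Snai1* was nearest to *Lama4* (r = 0.95, rho = 0.76), *Cxxc5* (r = 0.94, rho = 0.81) and *Dram1* (r = 0.93, rho = 0.55), where rho was lower than r in each case, and knockout replicate 1 was its extreme tumor.

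Markers of the cells that a tumor holds were summed in deposited CPM, since many of the 10 genes are also expressed outside the epithelium. All 11 luminal epithelial markers were tested and 0 called, and their sum was 1394, 1876, 2319, 2194, 2258 and 2390 CPM in knockout replicates 1 to 6 and 2651, 1397, 1971, 2471 and 1994 CPM in wild-type replicates 1 to 5. Their most abundant gene in CPM over all 11 tumors was *Prlr*, the prolactin receptor, at 312 ± 116 CPM (SD, n = 6) and 317 ± 170 CPM (SD, n = 5). In knockout tumors *Cldn3*, named after its values were seen, was higher at 320 ± 80.2 CPM (SD, n = 6). Luminal markers were thus present in every tumor, and the lowest sums were those of knockout replicate 1, the tumor with the highest *Snai1*, and wild-type replicate 2, the tumor with the next highest. The 9 basal markers, of which 0 were called, summed to 591, 173, 458, 581, 470 and 664 CPM in knockout replicates 1 to 6 and to 1246, 420, 422, 455 and 146 CPM in wild-type replicates 1 to 5, with *Mylk* the most abundant in CPM not divided by length. Wild-type replicate 1 had the highest basal sum and also the highest *Dab2*, *Cdh2*, *Vim*, *Cd44* and *Zeb1*, and the part of basal cells in these levels was not tested.

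Of 9 fibroblast markers 0 were called, 8 had a log2 fold change above 0 and 1 below it, with a median of 0.32. *Col1a1* was the most abundant, and their sums were 676, 728, 639, 642, 401 and 1022 CPM in knockout replicates 1 to 6 and 405, 527, 714, 745 and 412 CPM in wild-type replicates 1 to 5. Macrophage markers summed to 689, 524, 569, 431, 457 and 572 CPM in knockout replicates 1 to 6, and to 693, 519, 553, 443 and 328 CPM in wild-type replicates 1 to 5. They were led by *Lyz2* in CPM over all 11 tumors, a rank that was not taken within each genotype. Of the 12 macrophage markers, 10 had a log2 fold change above 0 and 2 below it, with a median of 0.21. *Lyz2*, which encodes lysozyme, was at 194 ± 36.9 CPM (SD, n = 6) in knockout and 94.4 ± 41.3 CPM (SD, n = 5) in wild-type tumors, with a difference of 1.02 on the log2 scale (SE 0.26, adjusted p = 0.0657 in edgeR). It was called higher in DESeq2 (adjusted p = 0.00597), in limma-voom with sample quality weights (adjusted p = 0.0411) and in edgeR without wild-type replicate 3 (adjusted p = 0.0202). In edgeR over all tumors 1 marker was called, and it was lower, *Cd14*, a co-receptor for lipopolysaccharide named after its values were seen, with a log2 fold change of -1.19 (SE 0.28, adjusted p = 0.0481 from edgeR). The adjusted p of *Cd14* ran from 0.002 to 0.193 over the alternatives. It was 0.0606 with library size only, 0.057 with no filter on low counts, 0.0861 in limma-voom, and between 0.0679 and 0.1 in edgeR when a knockout tumor or wild-type replicate 1 or 2 was left out.

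The 7 pericyte and smooth muscle markers, 0 of them called, summed to 228 ± 24.2 CPM (SD, n = 6) in knockout and 233 ± 48.5 CPM (SD, n = 5) in wild-type tumors, with *Notch3* the most abundant. For the 10 endothelial markers, led by *Cdh5*, the sums were 84.8 ± 19.3 CPM (SD, n = 6) and 99.6 ± 19.0 CPM (SD, n = 5), and again 0 were called by edgeR, although all 10 had a log2 fold change below 0, with a median of -0.22. Lymphocyte markers were low. The 8 T cell markers, 3 of them tested and 0 called, summed to 5.70 ± 1.51 CPM (SD, n = 6) and 6.05 ± 3.03 CPM (SD, n = 5), with *Cd8a* the most abundant. Of the B cell markers only *Cd79b* was used here, at 0.371 ± 0.242 CPM (SD, n = 6) and 0.328 ± 0.140 CPM (SD, n = 5), near the 0.213 to 0.285 CPM that 3 counts represent and that a count of 0 allows, for counting error only.

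Adipocyte markers, led by *Plin4*, summed to 62.2, 26.2, 7.65, 11.3, 8.45 and 56.4 CPM in knockout replicates 1 to 6 and to 27.9, 12.9, 141, 37.4 and 31.5 CPM in wild-type replicates 1 to 5, with 0 of 7 tested genes called by edgeR. All 7 had a log2 fold change below 0, with a median of -0.80, and limma-voom with sample quality weights called *Plin4* lower (log2 fold change -1.53, SE 0.46, adjusted p = 0.0484). Skeletal muscle markers, led by *Acta1*, summed to 7.66 ± 9.02 CPM (SD, n = 6) and 6.16 ± 11.4 CPM (SD, n = 5), with 0 of 1 tested gene called. The 10 dividing cell markers, led by *Mki67*, summed to 489, 721, 763, 704, 722 and 678 CPM in knockout replicates 1 to 6, and to 363, 580, 457, 568 and 492 CPM in wild-type replicates 1 to 5. Knockout replicates 2 to 6 lay above every wild-type tumor, and replicate 1, the tumor with the highest *Snai1* and *Vim* of its group and the lowest *Cdh1*, lay among them. All 10 of these markers had a log2 fold change above 0, with a median of 0.45, 6 had an unadjusted p under 0.05 (18.7% of all genes did) and 0 were called by edgeR. DESeq2 called 5 of the 10, against 6.32% of all genes, and 7 were called in limma-voom with sample quality weights, against 11.2%. Without knockout replicate 1, edgeR called 2 of them (*Mki67* and *Cdk1*, the latter named after its values were seen), and with protein-coding genes only or without wild-type replicate 2 it called 1 (*Cdk1*). The part of dividing cells in the levels of the EMT genes was not tested.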

How the data were processed

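RNA was extracted with Trizol from 11 tumors and sequenced as poly(A)-enriched, stranded, paired-end libraries. Per the paper's methods and the submitters' processing notes, the authors checked reads with FastQC, aligned them to GRCm38 with Bowtie2 and used Partek; the counting method, its use of strand and the annotation are not given in the sources used here. The authors deposited estimated counts per gene, and CPM, which were each estimated count divided by its column sum.

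The estimated counts, rounded to whole numbers, were tested in edgeR 4.0.16 in R 4.3.3 (TMM factors, default filter, quasi-likelihood test, Benjamini-Hochberg adjustment over 19232 genes), after tests on simulated data. Deposited CPM was used for levels. Alternatives were DESeq2 1.42.0, limma 3.58.1 (voom with sample quality weights), library size only, no filter, protein-coding genes only, the replicate number as a block and each tumor left out. The members and lists were chosen with earlier results of these data known. Named genes were all members, *Pcbp1*, the called and most abundant genes of lists, the most abundant marker of each cell type and the 3 genes most like each member. For lists and markers, the most abundant or leading gene was that by CPM over all 11 tumors, not divided by exon length. *Fam3d*, *Dab1*, *Cd79a* and *Ms4a1* were among the listed genes not used here.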

Additional observations from a re-analysis of the deposited data

Results flagged for a closer look

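In 44 groups of values searched (the 10 genes, *Pcbp1* and the marker sums, within each genotype), 6 had a tumor that stood apart from the rest of its genotype, and chance gives about 1 in 20 groups, or 2.2 of 44. *Snai1* was at 8.54 CPM in knockout replicate 1, where the next tumor of the group was at 2.33 CPM. *Snai1* was also high in wild-type replicate 2, at 5.41 CPM with the next at 3.29 CPM. The basal epithelial sum of wild-type replicate 1 was 1246 CPM, against 455 CPM in the next tumor. Adipocyte markers reached 141 CPM in wild-type replicate 3, with the next tumor at 37.4 CPM. Skeletal muscle markers reached 26.6 CPM in wild-type replicate 5, where the next was at 2.01 CPM. The dividing cell sum of knockout replicate 1 was 489 CPM, below the 678 CPM of the next lowest.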

How the results depend on the processing

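The 10 genes gave 170 log2 fold changes under the alternatives, of which 164 kept their direction and 0 had an adjusted p under 0.05. The 6 that turned belonged to *Cdh1* and *Zeb2*. Leaving out each tumor gave -0.17 to 0.014 for *Cdh1* and -0.052 to 0.36 for *Zeb2*, and limma-voom with sample quality weights gave -0.25 for *Zeb2*; the cause was not tested. Over all genes, 319 were called lower and 117 higher in edgeR. DESeq2 called 730 lower and 486 higher, limma-voom 1190 and 968, and leaving out each tumor 144 to 389 and 41 to 187, in the last case with fewer samples. The replicate number as a block gave 118 lower and 42 higher genes over the 10 tumors numbered 1 to 5, with none of the 10 genes called, and 2 of 5 knockout tumors resembled most the tumor of their own number, so that the numbers were not taken as pairs.

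The lists, without calls in edgeR, gained 1 gene in some alternatives: *Jup* among epithelial genes in DESeq2 and limma-voom, *Ddr2* (DESeq2) and *Loxl2* (limma-voom, and without wild-type replicate 1, for a range of 0 to 1 with each tumor left out) among mesenchymal genes, *Tcf3*, *Fam3a* and *Cltc* in their lists in limma-voom, and *Spp1* in DESeq2, and gained 2 (*Hnrnpm* and *Hnrnpa1*) in the CD44 list in limma-voom. These genes were named after their values were seen. Over all genes tested, DESeq2 called 6.32% and limma-voom with sample quality weights called 11.2%. Centring within genotype raised the pairs with an adjusted p under 0.05 from 3 to 10, where p-values may be too small because permutations made no allowance for the means removed. Deposited CPM and a pseudocount of 0.1 left the count within 1.5 times. The lowest depths were those of *Snai1* (15 to 100 counts a tumor), *Snai2* (21 to 223) and *Cdh2* (23 to 163); what depth adds to their spread was not tested.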
